A study of Macaca mulatta with 23 samples.

Results

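The corticotropin-releasing hormone system was examined through DNA methylation at 8 genes: the ligands CRH, UCN, UCN2 and UCN3, the receptors CRHR1 and CRHR2, the binding protein CRHBP, and POMC, the precursor of corticotropin. Members were all measured positions inside a fixed window of the human build hg19 around each gene, whatever their levels. The genes and windows were chosen with earlier results of these data known. The windows held 144 of the 444312 positions in the table, and 5 of the 8 genes had any. The levels came from 23 young rhesus monkeys (Macaca mulatta), 1 library per animal, from the left central nucleus of the amygdala in 11 and the right in 12. No animal was labelled as treated or as carrying an altered allele. Anxious temperament, a trait of fearful, inhibited behaviour, was scored on a continuous scale from -1.48 to 1.43 (median 0.08). Scores ran from -0.83 to 1.43 in left and from -1.48 to 0.89 in right samples. Ages were 1.1 to 2.13 years on the left and 1.1 to 1.64 years on the right. Monkeys are named by hemisphere and an arbitrary number, which pairs no samples. A methylation level is the percentage of reads called methylated at a position. Differences are in percentage points, and slopes are points per unit of score or per year.

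CRH is the peptide that starts the hormonal stress response in the hypothalamus, and neurons of the central amygdala also make it as a transmitter. It acts through CRHR1 mainly. Urocortin (UCN) binds both receptors, while urocortin 2 and urocortin 3 favour CRHR2. CRHBP binds CRH and UCN outside cells and limits how much reaches the receptors, and POMC is cleaved to corticotropin in the pituitary downstream of CRHR1. Methylation of CpG sites in CpG-rich promoter DNA generally goes with silencing, whereas CpG-rich DNA near active or inducible genes is usually unmethylated.

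The human coordinates were those the authors gave macaque reads, and a base that the macaque genome does not share with the human build can be lost or misread. No gene annotation or sequence of hg19 was used here, so exons, introns and start sites were not assigned and no sequence is shown. The table holds methylation only, so no marker gene could be used to check the labelled brain region. In such bulk tissue a different mix of cells and a different level per cell cannot be told apart. Libraries lacked between 0.751% and 49.7% of all positions, left 3 the most and right 9 next with 21.2%. Read depth was not known. The 48 window positions with a mean between 10% and 80% show how these libraries stand apart. Left 3 was at exactly 0 at 16 of the 45 it had, and right 9 at 14 of 39. Of the other 21 monkeys only right 7 was at 0 at any of them, at 1 position. Several results that rest on left 3 or right 9, though not all, are therefore given with and without both.

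Coverage of the gene family was uneven. UCN had 63 positions, CRHR1 29, CRHBP 26, CRH 22 and CRHR2 4. UCN2, UCN3 and POMC had 0 measured positions in their windows, and the nearest ones outside lay 1786, 18298 and 5188 bp beyond the window edges. These 3 genes are therefore not described further. Neighbouring positions no more than 200 bp apart were joined into runs of 3 or more, and 9 of the 32706 runs in the table lay in the windows. The level of a run in a monkey averages the deviations from each position's mean over monkeys and adds the mean of those means, so that a missing position does not by itself shift it. Of the 144 positions, 52.8% had a mean under 5%, 15.3% one between 20% and 80% and 9.03% one over 80%. In the whole table these shares were 51.6%, 18% and 21.1%. The plot of levels along the 9 runs shows that the high and intermediate levels lay mostly in UCN. Of the positions with a mean of 20% or more, UCN had 27, CRHR1 4, CRHBP 3, CRHR2 1 and CRH 0.

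**Figure D1:**
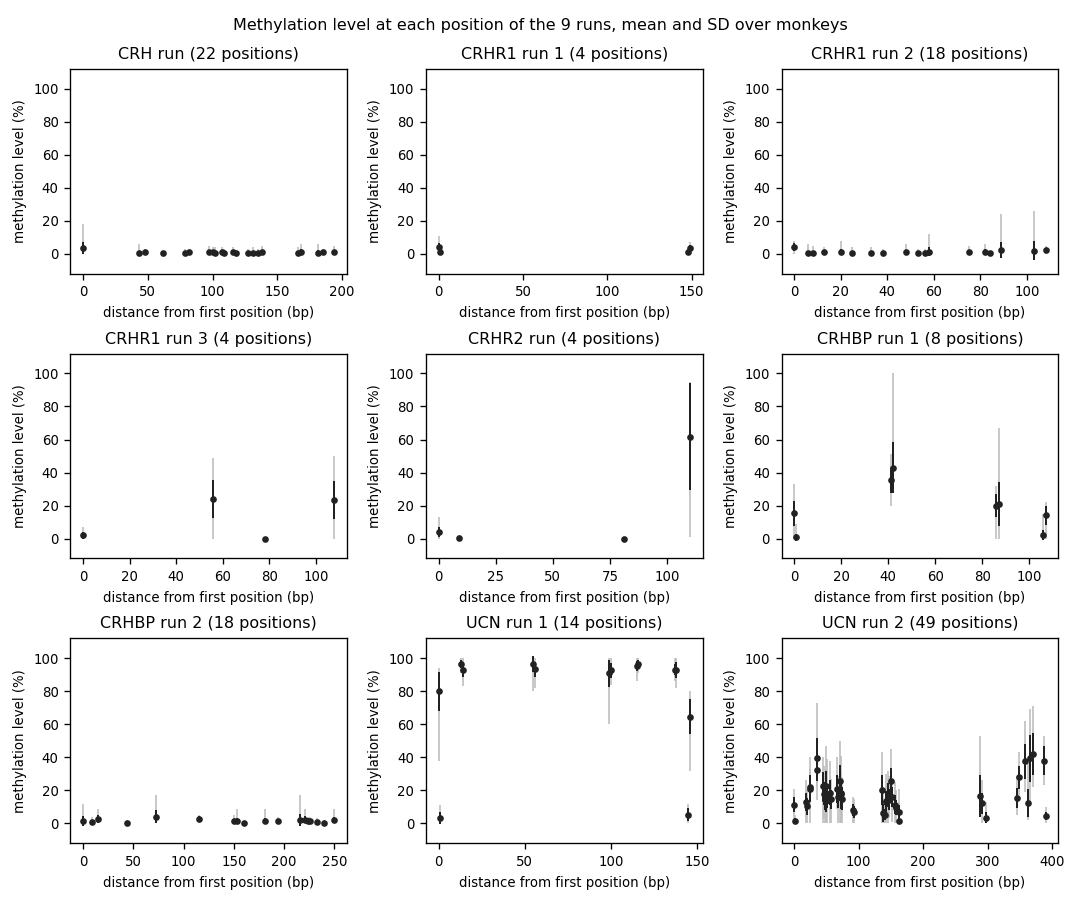
Methylation level (%) at each position of the 9 runs against distance from the run's first position (bp); points are means over monkeys, black bars SD and grey bars the lowest to highest monkey. The CRH run, the CRHR1 runs 1 and 2 and the CRHBP run 2 lie near 0, UCN run 1 lies mostly above 90% and UCN run 2 between 1.43% and 42.2%.

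Among the ligands, CRH was almost free of methylation. Its 22 positions formed a single run on chromosome 8 from 67089207 to 67089401 (195 bp), with a level of 0.911% ± 0.581 (SD, n = 22). The lowest monkey, right 5, was at 0.364%, the median was 0.682% and the highest, left 9, was at 2.41%. The mean was 0.864% ± 0.676 (SD, n = 10) on the left and 0.951% ± 0.517 (SD, n = 12) on the right. Left 3 had no value in this run. Only the first position, 67089207, had a range of 10 points or more. It averaged 3.5% ± 3.78 (SD, n = 22) and reached 18% in right 9, against 6% or less in every other monkey with a value. At the other 21 positions between 8 and 18 of the 22 monkeys were at exactly 0, so the level lies at the floor of the measure.

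UCN, the other measured ligand, had the highest mean over its window among the 5 measured genes, 30.5% ± 3.61 (SD, n = 23), in 2 runs of contrasting level. The level depends on the positions covered: over the UCN positions with a value in every monkey the mean was 15.5%. It was still the highest among the genes with such positions, ahead of CRHBP at 10.2%. UCN run 1, on chromosome 2 from 27528406 to 27528552, held 14 positions and averaged 77.2% ± 5.3 (SD, n = 22). There 11 of the 14 positions averaged over 80%. Without left 4 the monkeys lay between 75.1% and 81.3%. Left 4 stood at 54.4% and had values at only 2 of the 14 positions, 80% at 27528461 and 60% at 27528505. Left 3 had none.

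UCN run 2, from 27530382 to 27530772, held 49 positions in 391 bp and averaged 17% ± 4.26 (SD, n = 23). The mean level of its positions ran from 1.43% to 42.2%, and 15 of them averaged 20% or more. The lowest monkey was left 3 at 10.3%, the median was 17.2% and the highest was left 6 at 28.1%. Without left 3 and right 9 the run averaged 17.5% ± 4.07 (SD, n = 21). Some monkeys kept their place over most of the run: left 6 was above the median of the monkeys at 45 of its 49 positions and right 8 at 44, whereas left 10 was below it at 43. Others did not. Right 1 was below the median at 30 positions and above it at 15, but was the highest of all monkeys at 4. Its levels at these positions, 27530670, 27530674, 27530740 and 27530752, near the end of the run, were 53%, 26%, 62% and 71%. Right 2, below the median at 39 positions, had 43%, 15%, 50% and 22% there. The SD between monkeys was not unusual for the level: 60.9% of the 2975 runs with a mean between 5% and 20% had a lower one.

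Of the receptors, CRHR1 had 2 unmethylated runs and 1 of intermediate level. CRHR1 run 1 (chromosome 17, 43697164 to 43697313, 4 positions) averaged 2.46% ± 0.904 (SD, n = 22). CRHR1 run 2 (43698062 to 43698170, 18 positions) averaged 1.14% ± 0.665 (SD, n = 23), and its highest monkey was right 9 at 3%. In right 9 the positions 43698151 and 43698165 reached 24% and 26%, against 7% and 10% in the next monkey, right 1. CRHR1 run 3 (43825435 to 43825543, 4 positions), averaged 12.5% ± 5.59 (SD, n = 23). Its level came from 2 of the 4 positions. Position 43825491 averaged 24.2% ± 11.5 (SD, n = 23) and 43825543 averaged 23.7% ± 11.5 (SD, n = 23). Position 43825435 averaged 1.96% and 43825513 was at 0 in all 23 monkeys. Left 4 had 49% at both intermediate positions and left 1 had 43% and 50%, the highest pairs of values. Right 9 had 4% and 0, right 12 had 8% and 11%, and left 3 was at 0 at the first of them. Without left 3 and right 9 the run averaged 13.3% ± 5.01 (SD, n = 21).

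The last 2 CRHR1 positions, 43874936 and 43874940, had values in 18 monkeys and were too few to form a run. They averaged 87.8% ± 11.6 (SD, n = 18) and 82.7% ± 14.6 (SD, n = 18). In 17 of these monkeys the levels were at least 83% and 76%. Right 11 stood at 44% and 29%, low at both neighbours. The remaining CRHR1 position, 43828014, was at 0 in all 18 monkeys with a value.

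CRHR2, the receptor shared by the urocortins, had only 4 positions, in 1 run on chromosome 7 from 30695259 to 30695369. The first 3 averaged 4.14%, 0.0909% and 0.0435%. The fourth, 30695369, averaged 61.8% ± 32.3 (SD, n = 22), the widest SD of all 144 positions. Its levels fell into 3 steps. In 4 monkeys (left 10, right 6, right 7 and right 10) they lay between 1% and 9%, in 7 between 49% and 61%, and in 11 between 70% and 95%. The border of the middle and high steps lay between left 4 at 61% and right 9 at 70%. No other monkey lay between 54% and 81%. These libraries lacked 18.3% and 21.2% of all positions, so the place of this border is less sure. Scores overlapped across the steps: -0.83 to 0.57 in the low, -1.48 to 0.92 in the middle and -1.05 to 1.43 in the high monkeys. Whether a base that differs between the animals sets these steps was not tested, so the values may not be methylation alone. The CRHR2 run averaged 16.5% ± 7.96 (SD, n = 23), with nearly all of its spread from this position. Left 3 counts among the 23 but had 1 of the 4 positions and no value here.

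CRHBP, the binding protein, had an intermediate run beside an unmethylated one on chromosome 5. CRHBP run 1 (76248923 to 76249030, 8 positions) averaged 19.2% ± 4.63 (SD, n = 23), with a low of 13.8% in right 11, a median of 18% and a high of 33.5% in right 2. CRHBP run 2 (76249286 to 76249536, 18 positions), averaged 1.62% ± 0.674 (SD, n = 23) and reached 2.83% at most. Position 76248965 in run 1 averaged 43% ± 15.4 (SD, n = 23), the second widest SD in the windows, and right 2 stood alone at 100% against 60% or less elsewhere. Right 2 was also the highest monkey at 76249010, with 67% against a median of 19%. On the neighbouring cytosines 76248964 and 76249009 it had 36% and 14%, inside the range of the other monkeys. Right 2 lacked values at 2 of the 8 positions, 76248924 and 76249030. Like 76248965 and 76249010, each lies 1 bp above another measured position. The read depth of right 2 at these positions was not known. Whether its DNA differs in sequence at 76248965 or 76249010 was not tested, and the SD at these positions, the run maximum and the slopes of CRHBP run 1 include its values.

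**Figure D2:**
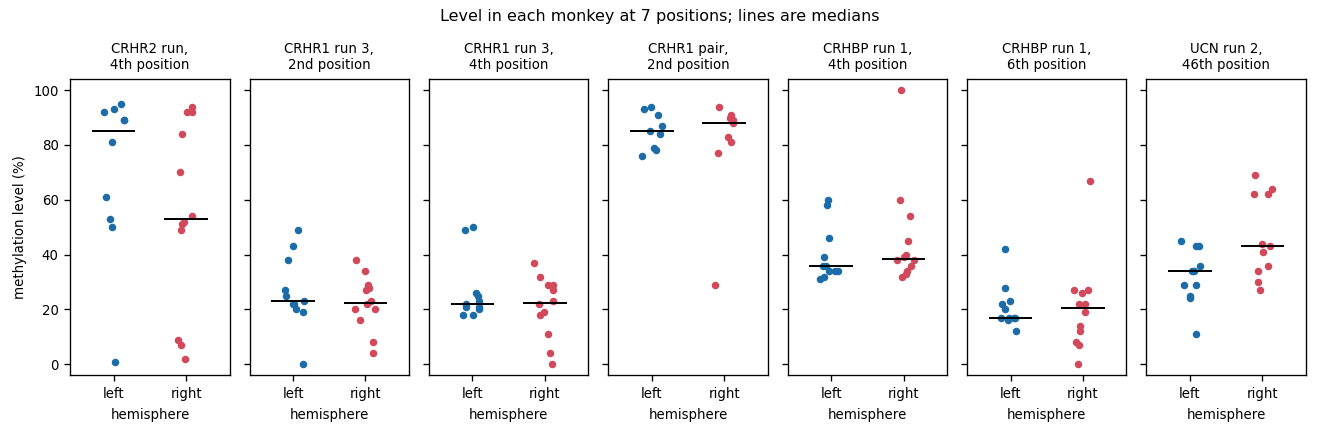
Methylation level (%) of each monkey at 7 positions of CRHR2, CRHR1, CRHBP and UCN, by hemisphere, with lines at the medians; the 4th position of the CRHR2 run is 30695369. CRHR2 values lie in 3 steps, 1 right monkey stands at 29% in the CRHR1 pair, and right 2 stands at 100% and 67% in the CRHBP panels.

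The cytosines of a CpG on opposite strands are 1 bp apart, so such pairs allow a check of the levels against themselves. Positions were paired from the lower coordinate upward, each used once, which gave 32 pairs in the windows, of which 26 lay in UCN, 4 in CRHBP and 2 in CRHR1. No sequence was read, so the strands are assumed, and where CpGs follow each other directly, as at 27530430 to 27530433 in UCN, the pairing rests on this order. The median absolute difference within a pair was 3.49 points, against 1.02 points over the 116411 pairs of the table. The window pairs and those of the table were not matched for level. A difference of more than 10 points was found in 5 pairs (15.6%), against 13.6% of all pairs, and one of more than 50 points in 2 (6.25%), against 5.26%. Both wide pairs were in UCN run 1. Position 27528406 averaged 80% and its partner 27528407 3.38%, and 27528551 averaged 5.33% against 64.7% at 27528552. The other 5 pairs of that run differed by at most 3.67 points. The difference had the same sign in all 21 monkeys with values at both members, for either wide pair. In UCN run 2 the lower coordinate had the higher mean in 18 of 19 pairs, by a median of 2.78 points. The same order held for the mean over pairs in 22 of 23 monkeys, all but left 3. In the whole table the lower coordinate was the higher one in 50% of the 115146 pairs with unequal means. Of the 1348 runs with at least 19 such pairs, 7 (0.519%), this run included, were as one-sided.

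**Figure D3:**
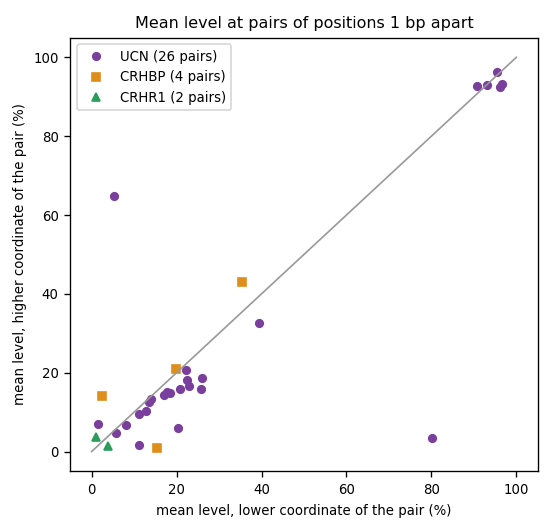
Mean level over monkeys (%) at the higher coordinate against the lower coordinate of each pair of positions 1 bp apart, for UCN, CRHBP and CRHR1, with the line of equality. Most UCN pairs of intermediate level lie below the line, and 2 UCN pairs, at 80% against 3.38% and at 5.33% against 64.7%, lie far from it.

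The main comparison of the study asked which sites follow anxious temperament, with age as covariate. No tested site of this gene family passed that test. Testing with limma was kept to positions that spanned 10 points or more and had values for 20 or more monkeys, and p-values were adjusted over all 192151 positions tested in the table. In the windows 77 of the 144 qualified, 58 in UCN, 10 in CRHBP, 6 in CRHR1, 2 in CRHR2 and 1 in CRH. The other 67 varied too little or had too few values. Of the 77, 0 were called at an adjusted p under 0.05 (background 0%), and every adjusted p rounded to 1. At an unadjusted p under 0.05 there were 5 members (6.49%), 4 with higher and 1 with lower levels at higher scores, against a background of 3.12%. All 5 were in UCN. With 77 neighbouring positions of the same monkeys these counts are not independent. The count of 5 became 2 when left 1 or left 6 was left out and 3 when left 10, right 2 or right 12 was, each on its own. It rose to 7 without right 4, and was 6 without both left 3 and right 9.

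UCN slopes were mostly positive: 51 of its 58 tested positions had levels that were higher at higher scores, with a median slope of 1.59 points. Run 2 held 46 of the 58 (42 positive) and run 1 held 12 (9 positive). As neighbours in the same monkeys, their signs are not independent. Left 6, with a score of 0.92, was highest or tied for highest at 26 of the 49 positions of run 2. The other genes were split, with 5 of 10 positive in CRHBP, 3 of 6 in CRHR1, 1 of 2 in CRHR2 and 0 of 1 in CRH. Some of these positions spanned 10 points only through right 9. They were CRH 67089207, CRHR2 30695259, CRHR1 43698151 and CRHBP 76249029, 76249286 and 76249502. Right 9 was at 18%, 13%, 24%, 15%, 12% and 17% there, in that order. Over all tested positions 52.5% of slopes were positive. The median slope was 1.42 points over the 77 and 0.0912 over all tested positions, and the median size regardless of sign was 1.51 against 1.14 points. The smallest p in the windows was at UCN position 27528544 in run 1. Its level ran from 82% in left 2 to 100% in left 1, right 3 and right 9, with a median of 94%. Its level changed with the score by 3.66 ± 1.24 points per unit (SE, n = 21; limma p = 0.00712, adjusted p = 1). Its paired position, 27528543, averaged 93.1% against 92.9%. There left 2 was at 89%, and left 1, right 3 and right 9 were at 95%, 94% and 100%. The score slopes of the paired positions were not compared. At 27528551, the low member of a discordant pair, the levels ran from 0 to 12% and the slope was 2.81 ± 1.02 (SE, n = 21; limma p = 0.0115, adjusted p = 1).

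**Figure D4:**
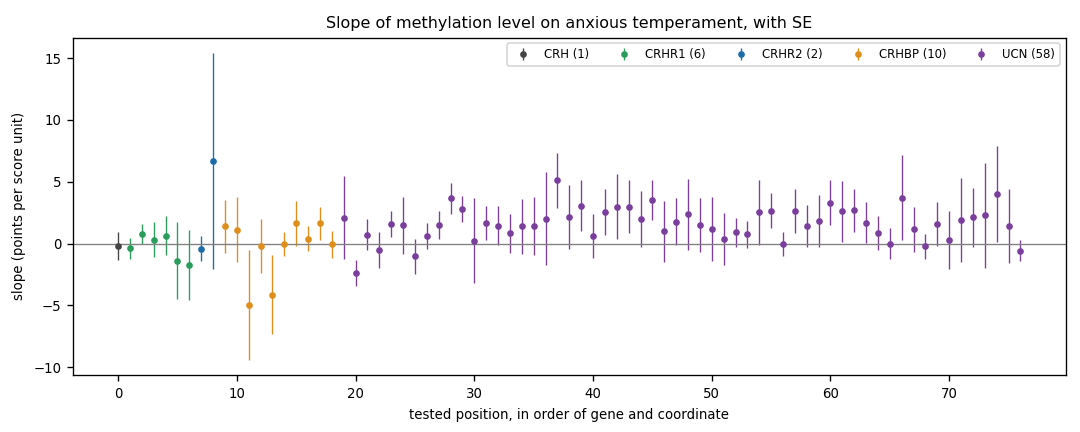
Slope of methylation level on the anxious temperament score (points per score unit, adjusted for age) with SE for the 77 tested positions, ordered by gene and coordinate. Most of the 58 UCN slopes lie above 0, and the widest error belongs to CRHR2 position 30695369.

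In CRHBP, CRHR1, CRHR2 and CRH the leading positions were further from the threshold. CRHBP position 76249010 had a slope of -4.13 ± 3.21 (SE, n = 23; limma p = 0.211, adjusted p = 1), and without right 2 it was -0.405. CRHR2 position 30695369 had a slope of 6.67 ± 8.75 (SE, n = 22; limma p = 0.453, adjusted p = 1). CRHR1 position 43698120, at 0 in 14 monkeys and at 12% in right 8, had a slope of 0.75 ± 0.8 (SE, n = 23; limma p = 0.357, adjusted p = 1). The CRH position had a slope of -0.185 ± 1.13 (SE, n = 22; limma p = 0.872, adjusted p = 1). Its sign turned without left 6, left 11, right 1 or right 4. Without right 9 this position no longer spanned 10 points and was not tested.

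At the level of runs, 5 of the 9 had a range of at least 5 points and values in at least 20 monkeys, and 21021 runs were tested in all. Of the 5, 0 were called for the score at an adjusted p under 0.05 (background 0%) and 0 had an unadjusted p under 0.05 (background 3.23%). UCN run 2 came nearest. Its 2 highest monkeys, left 6 at 28.1% and right 12 at 22.3%, had scores of 0.92 and 0.89, and its lowest monkey outside left 3, left 10 at 11.1%, had -0.83. However, right 4, with the lowest score of all (-1.48), stood at 22.2%, and left 11, with the highest (1.43), at 16%. The fitted slope came to 1.72 ± 1.2 points per unit (SE, n = 23; 95% interval -0.762 to 4.21; limma p = 0.165, adjusted p = 1). It was 1.92 ± 1.13 (n = 21) without left 3 and right 9, 0.96 without left 6 and 3.04 without right 4 (limma p = 0.0216, adjusted p = 1). Animal identifiers began with r or B: among the 12 r monkeys the slope was 3.75 ± 2.61 (SE), and among the 11 B monkeys 1.91 ± 1.3 (SE). The labels do not explain these identifier series.

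The other tested runs had wide intervals that include 0. For the score slope they ran from -1.6 to 4.7 points in UCN run 1, from -3.01 to 6.23 in the CRHR2 run, from -3.75 to 1.83 in CRHR1 run 3 and from -3.45 to 1.62 in CRHBP run 1. The slope of CRHBP run 1, -0.917 ± 1.22 (SE, n = 23; limma p = 0.462, adjusted p = 1), turned to 0.293 without right 2. Slopes of the receptor run CRHR2 differed in sign between the identifier series, at 7.05 ± 3.02 (SE, n = 12) for r and -0.493 ± 4.15 (SE, n = 11) for B, and their difference was not tested. The plot of run levels against score shows the spread of single monkeys.

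**Figure D5:**
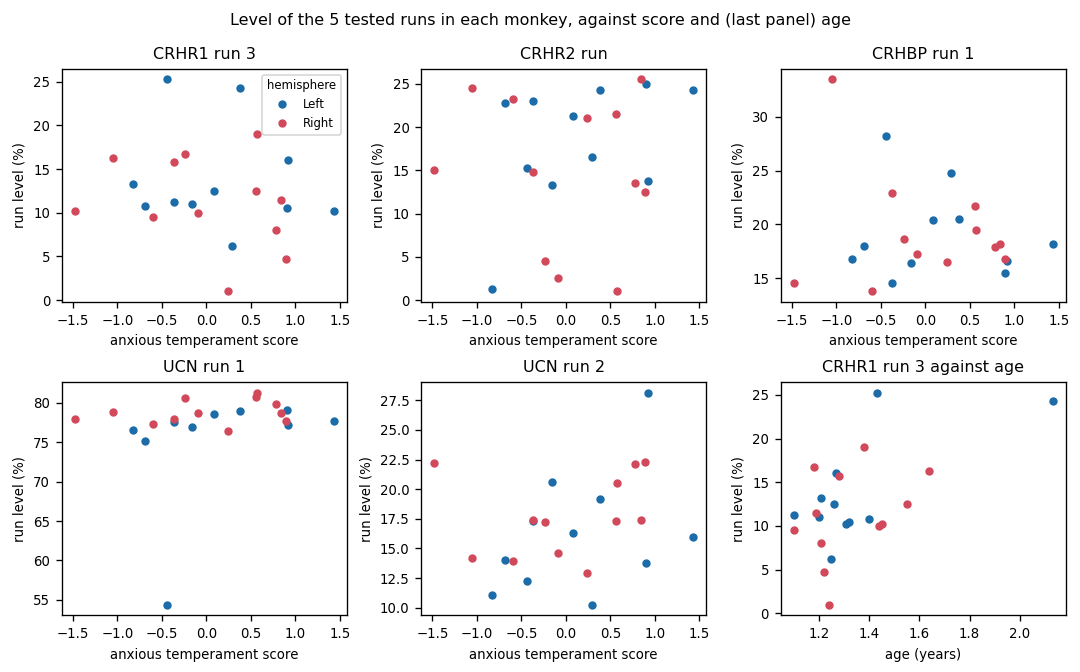
Level of each tested run (%) against the anxious temperament score, 1 point per monkey, coloured by hemisphere; the last panel shows CRHR1 run 3 against age in years. Left 6 stands highest in UCN run 2 at 28.1%, left 4 lowest in UCN run 1 at 54.4%, and right 2 highest in CRHBP run 1 at 33.5%.

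The same positions were compared between right and left samples, with score and age as covariates. Again 0 of 77 positions were called at an adjusted p under 0.05 (background 0%), and 3 (3.9%) passed an unadjusted p of 0.05, the background being 3.48%. All 3 lay in the stretch from 27530674 to 27530747 of UCN run 2 and were higher on the right. At 27530747 the left samples ran from 11% to 45% (median 34%) and the right samples from 27% to 69% (median 43%), so the groups overlapped. Their means were 32.1% ± 10 (SD, n = 11) and 46.5% ± 15 (SD, n = 11). The difference, right minus left, was 14.8 ± 5.71 points (SE; 95% interval 2.95 to 26.6; limma p = 0.0166, adjusted p = 0.93). At 27530730 the means were 24.3% ± 4.76 (SD, n = 11) and 31.5% ± 6.71 (SD, n = 11), with a difference of 7.35 ± 3.17 points (SE; limma p = 0.03, adjusted p = 0.93). At 27530674 they were 9.55% ± 5.07 (SD, n = 11) and 14.7% ± 6.21 (SD, n = 11), with a difference of 5.45 ± 2.51 points (SE; limma p = 0.0408, adjusted p = 0.93). The count of 3 fell to 1 without left 2, left 10, right 1 or right 4, each left out on its own, and rose to 5 without right 12. Over the 77 positions 53 were higher on the right, with a median difference of 0.825 points. Over all tested positions 54.3% were, with a median of 0.334 points.

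Among runs, 0 of 5 were called for hemisphere at an adjusted p under 0.05 (background 0%) and 0 had an unadjusted p under 0.05 (background 3.29%). UCN run 1 had the smallest p. It averaged 75.2% ± 7.41 (SD, n = 10) on the left against 78.8% ± 1.5 (SD, n = 12) on the right, a difference of 3.85 ± 2.15 points (SE; limma p = 0.0888, adjusted p = 0.978). This rested on left 4, which had 2 of 14 positions: without it the difference was 1.49 ± 0.759 points (SE; limma p = 0.0639, adjusted p = 0.995). With left 4 kept and a plain mean over the positions present, the difference was 2.24 ± 1 points (SE, n = 22; limma p = 0.0371, adjusted p = 0.975). This is under an unadjusted 0.05. In UCN run 2 the difference was 1.68 ± 1.75 points (SE), in CRHBP run 1 0.322 ± 1.82, in CRHR1 run 3 -2.24 ± 1.95 and in the CRHR2 run -2.88 ± 3.26, and each 95% interval included 0.

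Whether the score slope differed between the hemispheres was tested with an interaction term, given as the right slope minus the left. No position of the 77 was called at an adjusted p under 0.05 (background 0%), and 1 (1.3%) passed an unadjusted p of 0.05 (background 3.24%). It was UCN 27528407, the low member of a discordant pair, at 0 in 6 monkeys and at 11% in right 2, right 4 and right 7. Its slope differed by -4.82 ± 1.95 points (SE, n = 21; limma p = 0.0225, adjusted p = 1). Left 2, left 8 or right 4, left out alone, took this count of 1 to 0. Of the 5 runs, 0 were called at an adjusted p under 0.05 (background 0%) and 0 at an unadjusted p under 0.05 (background 3.96%). The smallest p was that of the CRHR2 run, with a difference of -5.23 ± 4.59 points (SE, n = 23; limma p = 0.268, adjusted p = 1). The slope was the lower one on the right at 46 of 58 UCN and 2 of 2 CRHR2 positions, and the higher one there at 6 of 6 CRHR1, 6 of 10 CRHBP and 1 of 1 CRH positions. Over all tested positions 58.8% had the higher slope on the right. No test compared the genes, and these counts include positions that spanned 10 points only through right 9.

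Age was the covariate of the study, and its term in the score model was read in the same way. Of the 77 positions, 0 were called at an adjusted p under 0.05, the background being 0.0531%, and 4 (5.19%) passed an unadjusted p of 0.05 (background 4.06%). Of the 5 runs, 0 were called at an adjusted p under 0.05, the background being 0.0666%, and 2 passed an unadjusted p of 0.05 (background 5.55%). These were the intermediate runs of CRHR1 and CRHBP, both with higher levels in older monkeys. Ages ran from 1.1 to 2.13 years, and left 1 was the oldest, ahead of right 2 at 1.64 years. Without left 1 the count of 4 positions became 2. The count of 2 runs became 1 when any of 11 monkeys was left out alone: left 1, left 5, left 6, left 9, left 10, right 2, right 3, right 6, right 9, right 11 or right 12.

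CRHR1 run 3 had an age slope of 13.7 ± 4.54 points per year (SE, n = 23; 95% interval 4.29 to 23.1; limma p = 0.00625, adjusted p = 0.688). The oldest monkey, left 1, was at 24.2%, the second highest level, and left 4, aged 1.43 years, at 25.2% was the highest. Without left 1 the slope was 11 ± 7.67 (SE, n = 22; limma p = 0.167, adjusted p = 1). On the logit scale, where the slope is in other units, the p was 0.0618 (limma, adjusted p = 0.982), above 0.05. Without left 1, left 3 and right 9 the slope was 8.8 ± 6.86 (SE, n = 20; limma p = 0.215). Within the B series, which includes left 1, it was 13.9 ± 5.23 (SE, n = 11), and within the r series -14 ± 23 (SE, n = 12). Position 43825543 of that run changed by 29.4 ± 9.55 points for each year of age (SE, n = 23; limma p = 0.00497, adjusted p = 0.732). CRHBP run 1 had a slope of 8.79 ± 4.13 (SE, n = 23; limma p = 0.0443, adjusted p = 0.895), and its position 76249010 one of 28.6 ± 10.8 (SE, n = 23; limma p = 0.014, adjusted p = 0.989). Right 2, the second oldest monkey, was the highest at both.

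UCN had the smallest p for age, at position 27528462 in run 1. Its median was 93%, and the lowest values were 82% in left 1 and 84% in left 2. At the paired position, 27528461, both of these monkeys were at 100%. The age slope at 27528462 came to -12.8 ± 3.61 points for each year (SE, n = 21; 95% interval -20.3 to -5.37; limma p = 0.00171, adjusted p = 0.462). Without left 1 it was -9.25 ± 6.08 (SE, n = 20; limma p = 0.143, adjusted p = 1). UCN 27528544, in the same run, had an age slope of the opposite sign, 8.62 ± 4.15 (SE, n = 21; limma p = 0.049, adjusted p = 1). The run as a whole had a slope of -0.154 ± 5.12 (SE, n = 22).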

How the data were processed

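Reduced representation bisulfite sequencing, which enriches CpG-rich fragments and reads unmethylated cytosines as thymine, was applied to tissue of the central amygdala nucleus from 23 monkeys. The deposited table gives, for each position, a methylation fraction per monkey and no read counts; fractions were multiplied by 100 here. Bismark 0.11.1 and the build hg19 are named in the submitters' processing notes, and coordinates are as in the file. No source used here states how the authors filtered positions or which coverage they required. Depth is unknown, so no interval covers counting error.

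Windows and gene lists were chosen with earlier results of these data known. Linear models of the percentage on score and age (hemisphere and its interaction with score added where tested) were fitted by least squares row by row, allowing for missing values, with the moderated variances and trend of limma (3.58.1; R 4.3.3), and p-values were adjusted by Benjamini-Hochberg over all tested positions or runs. Tests are two-sided. Positions needed at least 20 monkeys and a range of 10 points, and runs at least 3 positions, 20 monkeys and 5 points. SD is between monkeys, each 1 library. Confidence intervals of slopes are at 95%. Results named in full were, per gene, the run with the most positions and the tested run and position with the smallest p for the score, then the position and run with the smallest p for hemisphere, interaction and age, and the 3 positions of widest SD. Other positions and single monkeys were chosen after their values were seen. The statistics were tested on simulated data. The alternatives were other scales, filters, variance models and run levels, the identifier series as covariate, and each monkey left out. Leaving out left 1, left 3 and right 9 together was added after seeing the data. Symbols were matched to a macaque RefSeq gene table (8 of 8), which gave no hg19 coordinates. Other genes of the pathway, such as the enzymes that process POMC, were not located.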

Additional observations from a re-analysis of the deposited data

How the results depend on the processing

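No result passed an adjusted p under 0.05 in limma under any alternative run, and the smallest adjusted p among the 15 named results was 0.208, for the age slope of UCN 27528462 without right 2. Of 489 alternative values of those results 5 changed sign. These were the score slope of CRH 67089207, which ran from -0.424 to 0.23 when single monkeys were left out, and that of CRHBP run 1, which ran from -2.12 to 0.293. Averaged over its window, the UCN score slope was 1.52 ± 1.04 (SE) and ran from 0.943 without left 6 to 2.59 without right 4. The CRHR1 window slope was -0.0543 and became -0.689 with a plain mean. With single monkeys left out it ran from -0.271 to 0.0593. The window slope of CRH then ran from -0.0357 to 0.072 and that of CRHBP from -0.455 to 0.217. The signs of these window slopes were therefore not stable. With only the positions measured in all monkeys, fewer positions entered, and the mean levels of the windows were 3.2% for CRHR1 (8.65% with all), 0.0435% for CRHR2 (16.5%), 10.2% for CRHBP (7%) and 15.5% for UCN (30.5%). Positions with an unadjusted p under 0.05 for the score numbered 3 on the logit scale, 1 with a range of at least 20 points and 2 with complete positions. For hemisphere they numbered 5 without the range filter, 5 without the variance trend and 0 with complete positions. No paired analysis was possible because left and right samples came from different monkeys, whose numbers are arbitrary. A coverage minimum was not tried, since the table holds no counts.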
